A study of Mus musculus with 2 samples.

Results

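Mir221 and Mir222 are neighbouring microRNA genes on the mouse X chromosome whose main products carry the same seed, the bases that pair with target messenger RNAs. They were taken by gene symbol from tables of 1973 microRNA genes, and both members, 2 of 2, passed the minimum of 10 counts in each library that 365 genes met (18.5%). The tables come from skeletal muscle of newborn mice of strain B6NCrl at postnatal day 0, with RNA under 30 bases sequenced from 2 samples of 1 group, each a portion of muscle from a single pup. The samples are labelled as separate biological replicates, but both carry the same donor record, and no label says whether they came from different pups. No sex was recorded, no agent, allele or second age was studied, and the group therefore has no control to be set against. Replicate 1 held 7955914 microRNA counts on the annotated strand among 16398945 reads, and replicate 2 held 10816295 among 21037937. As a check of the tissue label, Mir206, a microRNA of skeletal muscle, ranked 1, while Mir208a, of cardiac myosin, stood at rank 253. Of other muscle microRNAs, Mir133b ranked 99, Mir208b 103, Mir499 117 and Mir486 191. Mir1a-1 (271), Mir133a-1 (283) and Mir133a-2 (377) ranked below Mir208a, but these 3 and Mir133b have copies and may have lost reads that fit more than 1 place.

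A microRNA is cut from a hairpin precursor and guides a silencing complex to messenger RNAs that match its seed, lowering their output. The miR-221 and miR-222 pair is known for repressing Cdkn1b (p27), a brake on the cell cycle, and Kit, a receptor for stem cell factor. In cultured myoblasts the pair is high during proliferation and falls as the cells leave the cell cycle and fuse, while miR-1, miR-133 and miR-206 go the other way. It is also known from endothelial and vascular smooth muscle cells. A single age was sampled here, so a fall over differentiation could not be measured, and the values below give the level at birth.

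The mature sequences are shown because they are what makes the pair a family. In RefSeq's annotation of GRCm38.p6, both 3p products are 23 bases long and start with the same 8 bases, which include the seed (bases 2 to 8, in capitals). Counted from the 5′ end without gaps, they are equal at 11 of 23 positions. No shift of the later bases was allowed, so this count does not measure how alike the 3′ parts are.
mmu-miR-221-3p: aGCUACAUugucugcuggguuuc
mmu-miR-222-3p: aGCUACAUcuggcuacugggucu
mmu-miR-221-5p: aCCUGGCAuacaauguagauuucugu
The 5p product of Mir221, from the other arm of its hairpin, has another seed. The seed of the 3p products occurred in 1 other mature microRNA among 1738 in that annotation, miR-1928, whose gene Mir1928 had 0 counts in both libraries. That allows up to 3 counts, or 0.377 CPM in replicate 1 and 0.277 CPM in replicate 2, where CPM are counts per 1000000 annotated-strand microRNA counts of the library. Among genes with this seed in that annotation, Mir221 and Mir222 were thus the ones with counts.

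The hairpins are shown with the 3p product in capitals, since the deposited counts belong to the whole hairpin and do not tell its arms apart.
Mir221: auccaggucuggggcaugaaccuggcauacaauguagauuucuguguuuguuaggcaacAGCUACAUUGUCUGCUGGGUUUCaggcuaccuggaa
Mir222: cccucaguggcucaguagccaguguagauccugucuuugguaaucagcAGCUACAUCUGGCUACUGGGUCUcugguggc
Mir221 (ENSMUSG00000065422.1) lies at chrX:19146294-19146388 and Mir222 (ENSMUSG00000065471.1) at chrX:19146893-19146971 of GRCm38, both on the minus strand, with 504 bases between them. Mir222 is therefore upstream. In GENCODE M21 no other gene overlaps either hairpin, so both are intergenic, and the nearest gene is the noncoding Gm14636, 10.01 kb upstream on the same strand. The hairpins share at most 9 bases in a row with each other and at most 12 with any other gene in the tables. The deposited tables keep multimapping reads out of the gene counts, and 20 shared bases in a row were taken as the sign that a gene may lose reads this way. Neither member met it. Opposite-strand counts were 0 for both genes in both libraries.

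Both members were low but clearly measured, slightly below the middle of the detected genes. Mir221 had 539 counts in replicate 1 and 445 in replicate 2, which are 67.7 CPM (95% counting interval 62.1 to 73.7) and 41.1 CPM (37.4 to 45.1). Mir222 had 393 and 288 counts, or 49.4 CPM (44.6 to 54.5) and 26.6 CPM (23.6 to 29.9). Replicate 1 was the higher library for both genes, and in neither gene did the counting intervals of the libraries overlap. Intervals, here and below, cover counting error only. The means were 54.4 CPM ± 18.8 for Mir221 and 38.0 CPM ± 16.1 for Mir222 (SD, n = 2).

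By mean CPM, Mir221 ranked 200 and Mir222 ranked 213, where the median of the 365 detected genes was 87.0 CPM and the range went from 1.22 CPM up to 113917 CPM for Mir206. The positions differed little between libraries, since Mir221 ranked 197 in replicate 1 and 203 in replicate 2, and Mir222 ranked 209 and 224. The order among close neighbours is not resolved. The span of CPM over the libraries overlapped that of 33 other detected genes for Mir221 and of 40 for Mir222, and the spans of the members also overlapped each other. Together the pair took 0.0117% of microRNA counts in replicate 1 (exact binomial 95% interval 0.0110 to 0.0125) and 0.00678% in replicate 2 (0.00630 to 0.00729), a mean of 0.00925% ± 0.00349 (SD, n = 2).

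**Figure D1:**
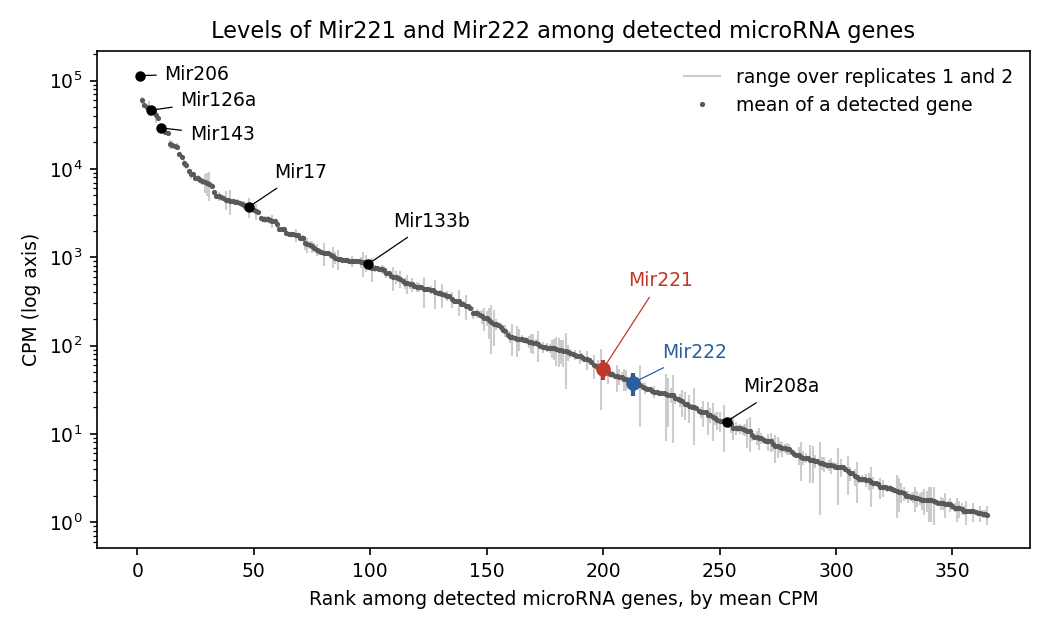
CPM (log axis) of the 365 detected microRNA genes in order of their mean, with grey lines for the range over replicates 1 and 2. Mir221 at rank 200 and Mir222 at rank 213 sit past the middle, far below Mir206 and Mir126a and above the cardiac Mir208a.

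Within each library Mir221 exceeded Mir222 by a similar factor. The ratio of their counts was 1.37 (95% exact counting interval 1.20 to 1.57) in replicate 1 and 1.55 (1.33 to 1.80) in replicate 2, a mean of 1.46 ± 0.123 (SD, n = 2). Mir221 supplied 57.8% and 60.7% of the pair's counts in replicates 1 and 2. The ratio is taken inside a library, so scaling between libraries does not enter it. It compares counts of whole hairpins, of 95 bases for Mir221 and 79 for Mir222, and was not adjusted for length or for the share of each arm. On the log2 scale the ratio in replicate 1 differed from that in replicate 2 by -0.17 (interval -0.46 to 0.11), a difference not resolved at this depth.

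Few detected microRNA genes that lie side by side were as close in level. Across all detected genes, 62 neighbouring pairs stood on 1 strand within 1 kb of each other, Mir221 and Mir222 included, and their members differed by a median of 7.29-fold. Of these, 55 pairs differed more than Mir221 and Mir222 did and 6 differed less. Next to Mir221 and Mir222 in this order stood Mir421 and Mir374b, also on chromosome X, with a smaller difference (1.35-fold), and Mir99b and Mir125a (1.52-fold) and Mir337 and Mir540 (1.53-fold) with larger ones. The smallest difference was that of Mir27a and Mir24-2 (1.05-fold), a pair in which at least 1 gene shares a 20-base stretch with a copy. At the other end, Mir20a and Mir19b-1 differed 423-fold, a value that rests on reads fitting 1 place only, because Mir19b-1 shares a 20-base stretch with a copy. Among the 41 pairs in which no gene shares such a stretch, 37 differed more than Mir221 and Mir222. Chromosome 12 holds 21 of the 62 pairs, and among the 41 pairs elsewhere 36 differed more.

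The ratio within a pair also moved little between libraries for Mir221 and Mir222. Its absolute change of 0.17 on the log2 scale was below the median change of 0.33 over the 62 pairs, and 41 pairs changed more. Neighbours of 1 cluster share their source, so these counts describe the pairs and are not a test.

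**Figure D2:**
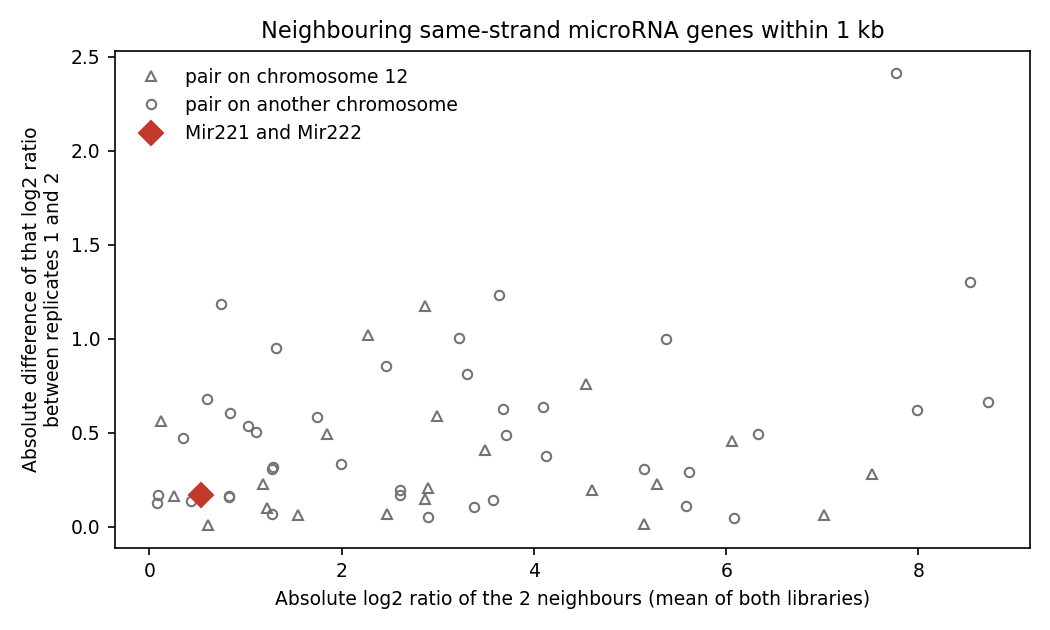
Each symbol is a pair of detected same-strand microRNA genes within 1 kb, placed by the absolute log2 ratio of its 2 genes (x axis, mean of both libraries) and by the absolute difference of that log2 ratio between replicates 1 and 2 (y axis). Mir221 and Mir222 (diamond) lie in the lower left corner at 0.54 and 0.17, while the median pair lies at 2.87 and 0.33.

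Both members were higher in replicate 1 than in replicate 2 by less than 2-fold. After TMM scaling, which corrects library totals for a few dominant genes, the log2 ratio of replicate 1 over replicate 2 was 0.47 for Mir221 (95% counting interval 0.29 to 0.66) and 0.65 for Mir222 (0.42 to 0.87). Neither was called at the 2-fold minimum, which 26 of the 365 detected genes passed with the higher value in replicate 1 (7.12%) and 4 with the higher value in replicate 2 (1.10%). With library totals in place of TMM, each log2 ratio was larger by 0.25, giving 0.72 for Mir221 and 0.89 for Mir222, and the split was 41 and 1. The members still stayed under 2-fold. The libraries are replicates of 1 group, so these ratios measure the spread between samples and not an effect.

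That spread was larger than counting error and ordinary for genes of this level. The median absolute log2 ratio over all detected genes was 0.31, and 117 of 365 genes had a larger one than Mir221 (32.1%) and 74 a larger one than Mir222 (20.3%). A window from 2-fold below Mir222 to 2-fold above Mir221 held 70 other genes, with means between 19.7 and 108 CPM. Of these, 29 exceeded Mir221 and 18 exceeded Mir222 in absolute log2 ratio. These 70 genes leaned the same way, with a median log2 ratio of 0.15 and 42 of 70 above 0, against a median of 0.01 over all detected genes.

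**Figure D3:**
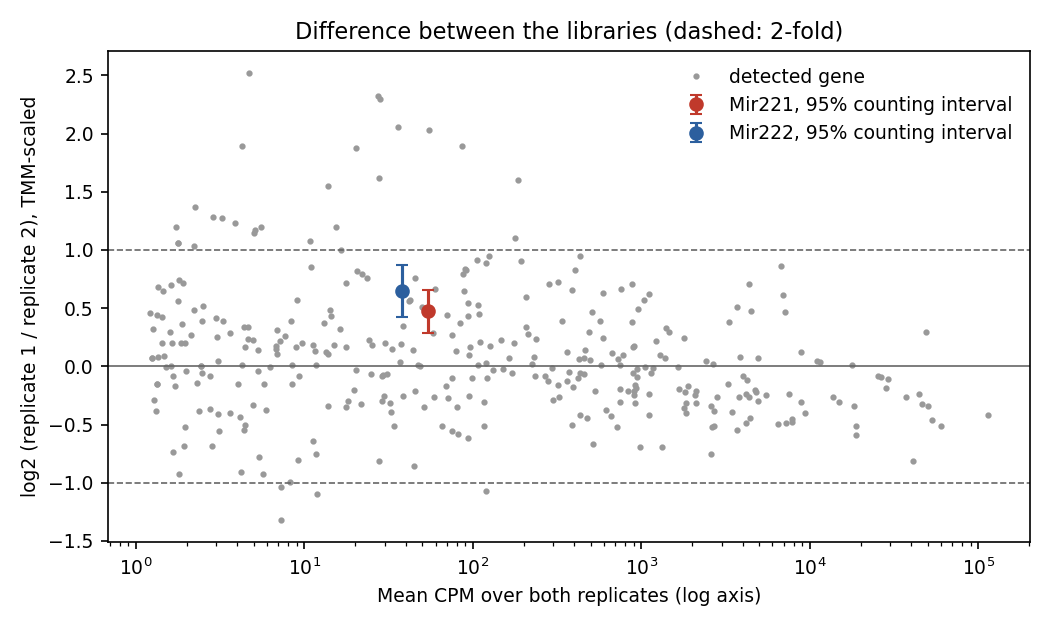
TMM-scaled log2 ratio of replicate 1 over replicate 2 (y axis) against mean CPM (x axis, log) for each of the 365 detected genes, with 95% counting intervals for the members and dashed lines at 2-fold. Mir221 at 0.47 and Mir222 at 0.65 lie above 0 and under the dashed line, inside the cloud of genes of like level.

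The genes most like each member were found by distance in log2(CPM + 1) over the 2 libraries, a measure that can reflect little more than a shared level. Closest to Mir221 came Mir26a-2, a microRNA of muscle differentiation, with 62.5 CPM in replicate 1 and 37.1 in replicate 2 (distance 0.186), and Mir183, of sensory cells, with 77.7 and 41.3 CPM (0.195). Mir137, of neurons, had 68.5 and 47.3 CPM (0.199). Mir31, a microRNA of muscle satellite cells, had 52.4 and 44.0 CPM (0.376), and Mir877 had 51.4 and 43.0 CPM (0.396). Closest to Mir222 came Mir193b with 53.0 and 30.2 CPM (0.204), Mir6944 with 46.2 and 30.6 CPM (0.215) and Mir669c with 53.7 and 30.4 CPM (0.220). Mir92-2 (43.1 and 31.9 CPM, 0.317) and Mir155, of activated leukocytes (60.3 and 30.1 CPM, 0.332), followed. Of these 10 genes, Mir26a-2, Mir669c and Mir92-2 share a 20-base stretch with a copy and may have lost reads. Each member was farther from the other (0.756) than from its own 5 nearest genes, as gene 18 in the order of Mir221 and gene 21 in that of Mir222.

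On chromosome X, where 40 of 120 microRNA genes were detected, Mir221 was number 23 and Mir222 number 24 by mean CPM. The detected genes of the chromosome had a median of 86.0 CPM, which is above both members. Its highest genes were Mir322 (25226 CPM ± 2016) and Mir351 (8861 CPM ± 1596), members of a cluster linked to muscle differentiation, and Mir652 (4343 CPM ± 46.3; SD, n = 2). The pair supplied 0.177% of the chromosome's microRNA counts in replicate 1 and 0.115% in replicate 2. The median log2 ratio of replicate 1 over replicate 2 was -0.06 over the 40 genes, with 19 above 0, so the members stood above the middle of their chromosome in this respect.

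Set beside microRNAs of muscle and of other cell types, the pair was a small part of the pool. In bulk tissue, fewer cells of a type and less RNA per cell cannot be told apart. The pair summed to 117 CPM in replicate 1 and 67.8 CPM in replicate 2, against 109345 and 122814 CPM for the list of microRNAs that rise with muscle differentiation, which was thus 933-fold and 1812-fold higher. Of 9 genes in that list 8 were analysed here and 7 were detected, and Mir206 (113917 CPM ± 9579) held nearly all of the sum. Mir133b (832 CPM ± 12.6) and the myosin-hosted Mir208b (747 CPM ± 21.6) also stood far above both members. Mir486 of the same list did not. It shares no 20-base stretch with a gene elsewhere, but genes that overlap it were left out of that search. Its opposite-strand counts were 61 and 69 in replicates 1 and 2, and whether it lost reads to an overlapping gene was not tested. It had 66.87 CPM in replicate 1, slightly below Mir221 there, and 82.75 CPM in replicate 2. Mir1a-1, Mir133a-1 and Mir133a-2 had mean CPM below that of Mir222, but all 3 share a 20-base stretch with a copy, as Mir133b does, and hold only reads that fit 1 place.

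The list for proliferating cells, the miR-17-92 and miR-106b-25 clusters, exceeded the pair 91.2-fold in replicate 1 and 102-fold in replicate 2, a narrower span than for the muscle list. All 9 of its genes were detected, led by Mir17 (3717 CPM ± 1342), Mir20a (1112 CPM ± 458) and Mir93 (1031 CPM ± 403; SD, n = 2). At the low end, 2 of the 9 had a mean CPM below that of Mir222. The list summed to 10688 CPM in replicate 1 against 6922 CPM in replicate 2, which after TMM is a log2 ratio of 0.38. Over its 9 genes the median log2 ratio was 0.17, with 7 above 0, beside 192 of all 365 detected genes, and Mir19b-1 alone past 2-fold (34 and 16 counts). In the muscle list the summed log2 ratio was -0.41, which is mostly that of Mir206 (-0.42), the median was -0.21, and 2 of 7 detected genes were above 0. The members, at 0.47 and 0.65, thus lay on the side of the proliferation list and away from the muscle list. That side was not particular to proliferation. List medians were also above 0 for epithelial (2.03), fibroblast (0.64), erythroid (0.52), leukocyte (0.34), cardiac (0.11) and smooth muscle (0.03) genes, and -0.32 for the endothelial gene. The 70 other genes of like level had a median of 0.15. How far any of these lists has a part in the ratios of the members was not tested.

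Vessel-wall microRNAs were far more abundant than the pair. The endothelial list, of which Mir126a (46207 CPM ± 1727) was analysed here, exceeded it 384-fold in replicate 1 and 699.9-fold in replicate 2. The smooth muscle list exceeded it 269-fold and 421-fold, with Mir143 at 29128 CPM ± 1961 and Mir145a at 890 CPM ± 177, while Mir145b had 1 count in replicate 1 and 0 in replicate 2. The log2 ratios of these lists' sums between replicates were -0.32 and -0.10, against 0.47 and 0.65 for the members.

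Fibroblast and mesenchymal genes exceeded the pair 57.3-fold in replicate 1 and 74.0-fold in replicate 2. They were led by Mir214 (4891 CPM ± 759), Mir199b (880 CPM ± 397) and Mir199a-2 (87.0 CPM ± 42.5; SD, n = 2), and 3 of the 4 genes share a 20-base stretch. Of the 4, 1 had a mean CPM below that of Mir222. All 4 had positive log2 ratios between the replicates, with a median of 0.64. The log2 ratio of the list's sum was lower, at 0.18, since Mir214, at 0.07, held most of it.

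Among the lists above the pair, those of blood and epithelium came closest in level. Leukocyte genes exceeded the pair 6.42-fold in replicate 1 and 8.06-fold in replicate 2, with Mir223 at 465 CPM ± 88.2, Mir146 at 93.4 CPM ± 35.3 and Mir150 at 45.5 CPM ± 0.692. Erythroid genes exceeded it 4.97-fold and 4.21-fold, with Mir451a at 404 CPM ± 204 and Mir144 at 29.9 CPM ± 6.53. The 7 epithelial and skin genes together exceeded it 4.53-fold and 4.94-fold, with Mir203 at 280 CPM ± 16.6, Mir429 at 54.5 CPM ± 50.7 and Mir200c at 35.8 CPM ± 33.6 (SD, n = 2). Mir203 held most of that sum, and 5 of the 7 genes had a mean CPM below that of Mir222. In these lists the sum over the pair changed less between replicates than in the muscle, endothelial and smooth muscle lists. It did so too for proliferation genes (91.2-fold and 102-fold), fibroblast genes (57.3-fold and 74.0-fold) and cardiac Mir208a (0.132-fold and 0.179-fold). With 2 libraries, this follows from how each sum itself differed between replicates, and it does not show that the pair and a list vary together. Leukocyte, erythroid and epithelial sums were higher in replicate 1, like the pair. Their log2 ratios were 0.22 for leukocyte genes (3 of 4 detected genes above 0), 0.78 for erythroid genes (2 of 2) and 0.42 for epithelial and skin genes (5 of 7). The 5 epithelial genes above 0 were all of the miR-200 family and passed 2-fold, while Mir203 was at -0.12 and Mir205 at -0.07. The part of other cell types in the levels of Mir221 and Mir222 was not tested. Cardiac Mir208a, at 15.5 and 12.1 CPM, was below both members in each library.

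**Figure D4:**
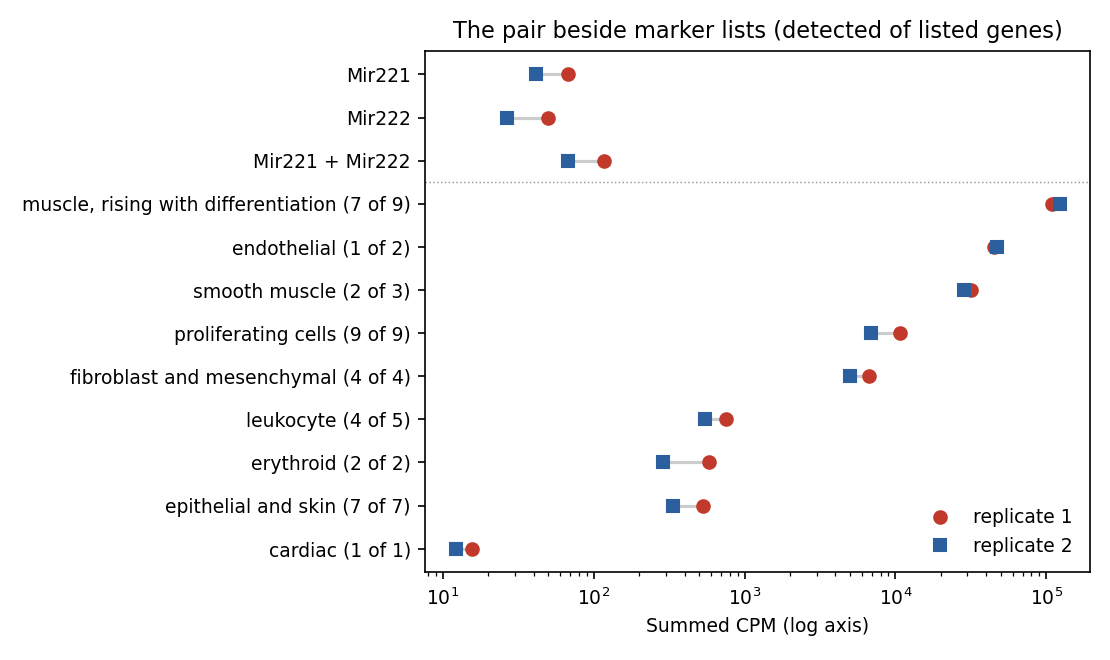
Summed CPM (log axis) of each member, of the pair and of 9 marker lists in replicate 1 (circles) and replicate 2 (squares), with the number of detected of listed genes in brackets. The pair at 117 and 67.8 CPM lies below every list other than the cardiac one, and replicate 1 is higher for the pair, while replicate 2 is higher for the muscle and endothelial lists.

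Target messenger RNAs were not measured, and the sites below are shown as sequence context for the seed. The motif ATGTAGC, the reverse complement of seed bases 2 to 8, was searched on the transcript strand of the longest annotated 3′UTR of 5 genes known or proposed as targets. At least 1 match was found in each, with 1 in Cdkn1b, 1 in Cdkn1c (p57, a relative of p27), 2 in Kit, 1 in Bbc3, which promotes cell death, and 1 in Timp3, an inhibitor of matrix proteases. Matches are common in long 3′UTRs, since the motif occurred in 9.45% of 21037 3′UTRs, in 21.8% of those within 25% of the length of that of Cdkn1b, and in 4.65% of those as close to that of Cdkn1c. For Kit, Bbc3 and Timp3 the same share was 14.9%, 5.94% and 23.2%. The sites of the cell-cycle inhibitors are given with the match in capitals, Cdkn1b at chr6:134924417-134924445 on the plus strand and Cdkn1c at chr7:143458918-143458946 on the minus strand (GRCm38).
Cdkn1b: tctaaaagcattggATGTAGCattgcgca
Cdkn1c: gggacctttcgttcATGTAGCaggaaccg
Both members would read these sites with the same 7 bases. The genes were picked because they are known or proposed targets, so the matches support nothing further, and a match is not evidence of repression in this tissue.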

How the data were processed

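Small RNA under 30 bases was sequenced from 2 samples. For each, the authors deposited raw counts for 1973 microRNA genes in 3 columns, on assembly mm10 with GENCODE M4, per the file headers. The sources used here name no aligner or counter. The columns were read as either strand, annotated strand and opposite strand, the last 2 told apart by their size. Annotated-strand counts were used. Multimapping reads (28.0% and 26.9% in replicates 1 and 2), unmapped reads (16.0% and 13.3%), reads in no gene on either strand (1.60% and 1.43%) and ambiguous reads stayed out of library sizes.

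Symbols and coordinates came from GENCODE M21 (GRCm38, the assembly of mm10) for 1894 genes, and microRNA sequences from RefSeq (GRCm38.p6). CPM use the library's microRNA total, and genes with 10 counts in both libraries were called detected. Ratios between libraries used TMM (edgeR 4.0.16, R 4.3.3; factors 1.09 and 0.918) with exact 95% counting intervals (scipy 1.17.1). No p-value was computed, since the samples form 1 group. A gene shared sequence when 20 bases of its hairpin recurred in another microRNA gene that does not overlap it (78 detected genes). The ratio step was checked on simulated data with 200 genes changed.

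The members, lists and tests were chosen with earlier results of these data known. Named genes were the members, genes of the same seed, the 5 nearest genes by level, the up to 3 highest genes of each list and of chromosome X, and, among neighbouring pairs, the 3 nearest to the members in absolute log2 ratio and the widest. Further genes (Mir1a-1, Mir133a-1, Mir133a-2, Mir486, Mir499, Mir27a, Mir24-2) were named after their values were seen. Alternatives were counts of both strands, other denominators, library totals, DESeq2 1.42.0 size factors, count minimums of 1 and 50, a fold minimum of 1.5, a 10 kb gap and each replicate left out.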

Additional observations from a re-analysis of the deposited data

How the results depend on the processing

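Of 42 alternatives over 9 results, 33 left a level, share or ratio within the spread between libraries or its counting interval, or a count within 1.5 times that reported, and none turned a direction. Some of the 33 could not have moved. With 2 libraries, each value lies within the SD of their mean, so leaving a replicate out always kept a level, share or ratio inside that spread. Counts of both strands could not change the ratio within the pair, since opposite-strand counts were 0. These alternatives say nothing about stability. With all reads as denominator, Mir221 had 27.0 and Mir222 18.8 counts per 1000000 reads and the pair took 0.00458%, since microRNA counts made up 48.5% and 51.4% of reads in replicates 1 and 2. With library totals the log2 ratios of replicate 1 over replicate 2 were 0.72 for Mir221 and 0.89 for Mir222. The number of genes past the fold minimum was 30 in the report, 115 with a count minimum of 1, 15 with a minimum of 50 and 84 with a fold minimum of 1.5. Within a 10 kb gap, 88 of 96 neighbouring pairs differed more than the members. With each replicate left out, Mir221 ranged from 41.1 to 67.7 CPM, Mir222 from 26.6 to 49.4 CPM, their ratio from 1.37 to 1.55 and the number of wider pairs from 54 to 55. With 288 to 539 counts, counting error was 4.31% to 5.89% of a value, below the spread between the 2 libraries.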
